A study of Mus musculus with 12 samples.

Results

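The 10 genes described here are core members of the Notch pathway: the receptors Notch1, Notch2 and Notch3, the ligands Dll1, Dll3 and Jag1, and the target genes Hes1, Hes5, Hey1 and Heyl. They were chosen by name, as 10 of the 21728 protein-coding genes of the annotation used, and the rule for choosing them uses no measured value. Native histone ChIP-seq for H3K27ac and H3K27me3 had been performed on 2 cell populations sorted from cerebral cortex of Gad67-GFP heterozygote mouse pups at postnatal day 2. The GFP-positive cells are termed cortical interneurons (CINs), and the GFP-negative cells, which hold the remaining neurons, glia and other cells of the tissue, are termed non-CINs. Both populations came from the same kind of tissue, pooled over several litters of a mixed background outcrossed to CD-1, so that both carried the reporter allele and no replicate is a single animal. There were 2 replicates of each mark in each population, which gave 8 peak lists. The reporter follows the gene for a GABA-synthesizing enzyme, so the GFP gate defines the populations and no other marker was used to sort them.

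Notch signaling passes between touching cells. Delta and Jagged ligands on one cell bind Notch receptors on the next, the receptor is cut by γ-secretase, and its freed intracellular part joins the DNA-binding protein RBPJ to activate Hes and Hey genes. In the embryonic and early postnatal brain the pathway is known for holding radial glia and other progenitors in an undifferentiated state, while newborn neurons present Delta ligands to their neighbors. H3K27ac marks active promoters and enhancers, and H3K27me3, which Polycomb complexes deposit, marks repressed or poised ones.

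For each gene, 3 values were taken from each list over a window that opens 5 kb before the transcription start site (TSS) and closes at the gene end, on mm10: the number of called peaks, the length of the window they covered in bp, and the top percentile. The top percentile is the rank of the gene's strongest peak, by fold enrichment over input, among all peaks of the same list, with 0 where no peak was called. The H3K27ac lists held 46040 to 62505 peaks over 40.8 to 56.3 Mb and the H3K27me3 lists 36662 to 45081 peaks over 34.5 to 49.8 Mb. A gene was counted as higher in a population when both CIN lists lay on the same side of the non-CIN list of the same replicate number. With 2 lists against 2, the smallest two-sided p of an exact permutation test is 0.333, so no difference at a single gene could pass 0.05 by that test, no other test was run, and every difference below is a description of these lists.

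The sorted populations differed as labelled at interneuron genes. The summed H3K27ac length at 8 interneuron markers was 59302 and 47668 bp in the CIN lists and 434 and 652 bp in the non-CIN lists, and 7 of the 8 were higher in CINs, Lhx6 having no H3K27ac peak in any list. Marker genes of other cell types carried H3K27ac in both populations. All 6 markers of astrocytes and radial glia had H3K27ac peaks in both CIN lists, where their summed length was 69002 and 64426 bp, against 92704 and 98005 bp in the non-CIN lists, and 5 of the 6 were higher in non-CINs. The 4 progenitor markers summed to 28191 to 30321 bp across all lists, and the 4 oligodendrocyte lineage markers to 11963 to 14933 bp. The 4 microglia markers summed to 12878 and 11572 bp among CINs versus 18169 and 15328 bp among non-CINs, with no peak at Aif1, and the 5 endothelial markers to 7039 to 13548 bp, with none at Cldn5 or Kdr. Among the markers of glutamatergic projection neurons, Neurod2 and Slc17a7 had no H3K27ac peak in any list, the non-CIN lists included. In such sorted populations, fewer cells carrying a mark and less of the mark in each cell cannot be told apart.

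H3K27ac was called in all 4 lists at each of the 10 Notch pathway genes, as it was at 12434 of 21728 protein-coding genes. The strongest peak ranked higher in non-CINs at 9 of the 10 Notch pathway genes. The exception was Dll3, which ranked higher in CINs. The same 9 genes and 1 gene were counted when the populations were required not to overlap at all. Of 14645 protein-coding genes with an H3K27ac peak in a list, 24.6% were higher in non-CINs and 33.2% were higher in CINs in both replicates, and 15.6% and 20.8% did so without overlap. The median difference in top percentile, CIN minus non-CIN, was -7.79 points over the 10 genes and 0.682 points over all genes tested. The sizes were uneven: when a difference of at least 5 points was required in each replicate, 3 of the 9 genes remained, Notch3, Hes1 and Heyl, and Dll3 was no longer counted in CINs. Within 2 kb of the TSS alone 6 of the 9 remained, with Notch2 and Jag1 no longer counted and Notch1 higher in CINs.

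**Figure D1:**
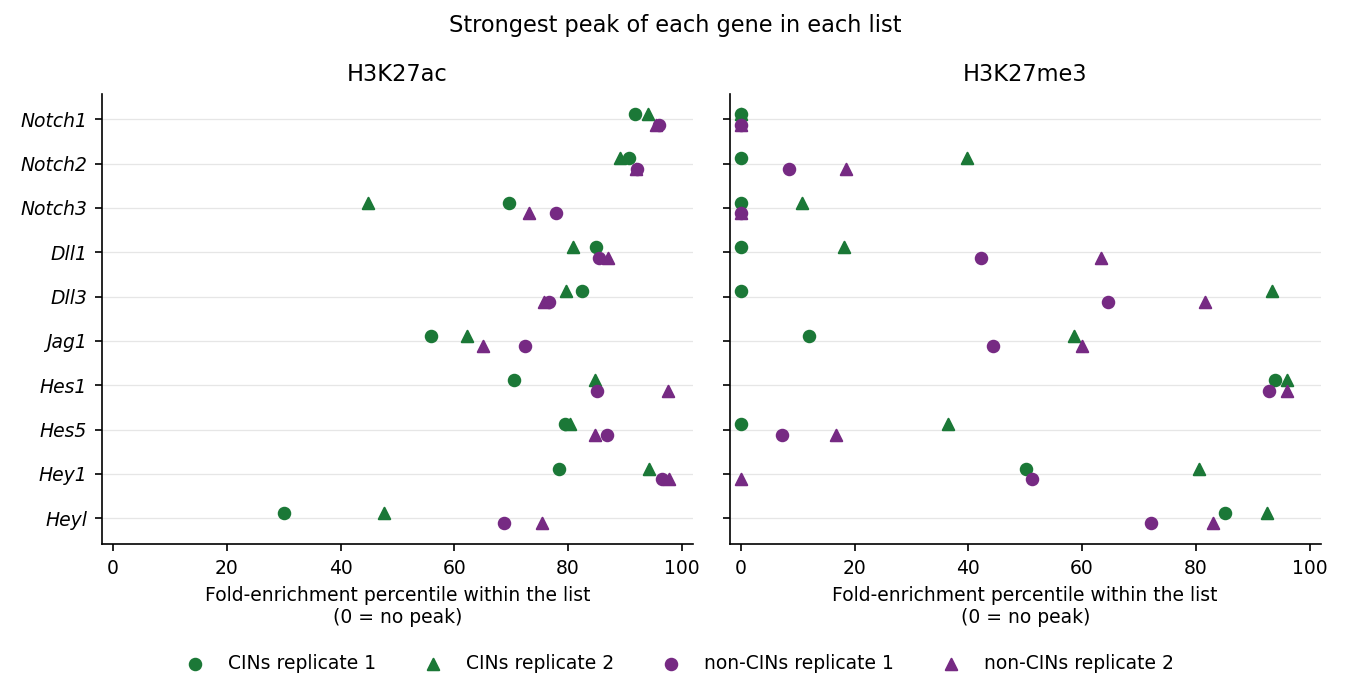
Top percentile of each Notch pathway gene (x axis, rank of its strongest peak by fold enrichment within the list, 0 where no peak was called) for H3K27ac on the left and H3K27me3 on the right, with CINs in green, non-CINs in purple, circles for replicate 1 and triangles for replicate 2. For H3K27ac the purple symbols lie to the right of the green ones at every gene except Dll3, and for H3K27me3 the spread between replicates of one population is often as wide as the distance between populations.

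The length under H3K27ac peaks followed the same direction at fewer genes. More of the window was covered in non-CINs in both replicates at 6 of the 10 genes (Notch1, Notch3, Jag1, Hes1, Hes5 and Heyl), where 29.2% of all genes tested did so. Only Dll3 of the 10 was covered more in CINs, beside 29.8% of all genes. These 6 genes and 1 gene also did not overlap between populations, as did 18.0% of all genes with more in non-CINs and 18.0% with more in CINs. The second CIN list had the lowest covered length at all of the members except Dll3 and was also the shorter of the CIN lists over the genome, at 40.8 Mb, and the part of that list in these differences was not tested. With replicate 2 left out, 4 genes rather than 1 were covered more in CINs, and with replicate 1 left out 9 genes rather than 6 were covered more in non-CINs. Over the gene body alone Notch1 and Hes5 were no longer counted, which left 4 genes, and with peaks merged within 500 bp Dll1 took the place of Hes5. With RefSeq gene bounds, tried after seeing the data, Notch1 was lost and 5 genes were left. The median difference in covered length, CIN minus non-CIN, was -1230 bp over the 10 genes and 13.5 bp over all genes tested.

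Among the receptors, Notch1 and Notch2 carried high H3K27ac ranks and the greatest summed H3K27ac length of the 10 genes in both populations. Notch1 is the main receptor of cortical progenitors. Its top percentile was 91.8 and 94.1 in the CIN replicates, compared to 96.0 and 95.5 in the non-CIN replicates, near the top of each list. It had 14 and 11 H3K27ac peaks among CINs versus 11 and 9 among non-CINs, more in CINs in both replicates, while the length they covered went the other way. Of its 63.8 kb window, 28290 and 25594 bp lay under peaks among CINs versus 28907 and 30052 bp among non-CINs, a ratio of means of 1.09. In 3 of the lists the strongest peak began about 12 kb after the annotated TSS, and H3K27ac covered all 250 bases upstream of the RefSeq start, which lies 12841 bp further into the gene, in every list. Within 2 kb of the annotated TSS alone, the Notch1 rank difference turned to 1.65 points in favor of CINs. Notch2 had 34 and 21 H3K27ac peaks in CINs and 30 and 26 in non-CINs. Its strongest peak ranked at 90.8 in CIN replicate 1 and 89.1 in replicate 2, with 92.2 and 91.9 for non-CINs, a gap of about the size of the spread within CINs. Its covered length, 30447 and 18623 bp across the CIN lists and 29552 and 29791 bp across those of non-CINs, pointed in opposite directions in the replicates.

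Notch3, a receptor best known from vascular mural cells and also present in neural progenitors, carried much less H3K27ac and differed more. Its covered length was 1763 and 920 bp among CINs versus 3307 and 2624 bp among non-CINs, 2.21 times as much on average. By rank, its strongest peak stood at 69.7 and 44.9 in the CIN replicates, compared to 77.9 and 73.2 in the non-CIN replicates. The populations did not overlap, but the CIN lists lay further apart from each other than the first of them lay from either non-CIN list. There were 2 peaks in each CIN list and 4 in each non-CIN list, all within the first few kb of the gene, and the non-CIN lists held peaks at 2 to 4 kb after the TSS where the CIN lists had none. The 4 markers of pericytes and smooth muscle, the cells for which Notch3 is best known, had a summed H3K27ac length of 9176 bp in CIN replicate 1 and 8771 bp in replicate 2, with 14430 and 12571 bp for non-CINs, and the part of such cells in the Notch3 values was not tested.

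The ligands did not share one direction. Dll1, a ligand presented by differentiating neurons, was acetylated across its start in every list, with a top percentile of 84.9 and 80.9 across the CIN lists and 85.4 and 87.1 across those of non-CINs. The difference in replicate 1 was only 0.487 points, and the covered length, 6503 and 4792 bp among CINs versus 6488 and 6304 bp among non-CINs, did not keep one direction. Dll3, a divergent Delta ligand that acts mainly within the cell that makes it, was the single member with more H3K27ac in CINs by both rank and length over the whole window. Within 2 kb of the TSS alone, Dll1 too had more H3K27ac length in CINs in both replicates, by a mean of 127.5 bp. Dll3 peaks covered 3050 and 2194 bp in the CIN replicates, compared to 2087 and 1907 bp in the non-CIN replicates, 1.31 times as much in CINs. Its top percentile was 82.4 in CIN replicate 1 and 79.7 in replicate 2, with 76.6 and 75.7 for non-CINs. The difference was thus 5.80 and 3.96 points in the replicates, and neither it nor the length difference was counted when at least 5 points or 500 bp were required in each. The Dll3 window shares 1723 bp with the neighboring gene Timm50, whose own TSS lies outside it.

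Jag1, the Jagged ligand of the set, held fewer but longer peaks in non-CINs. There were 6 H3K27ac peaks in each CIN list and 3 in each non-CIN list. They covered 4901 and 3593 bp across the CIN lists and 5520 and 6028 bp across those of non-CINs, a ratio of 1.36. The top percentile was 55.9 and 62.2 among CINs versus 72.4 and 65.0 among non-CINs, without overlap but with only 2.78 points between the lists of replicate 2. In non-CINs 1 unbroken stretch ran from upstream of the TSS into the gene, where the CIN lists held separate peaks.

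**Figure D2:**
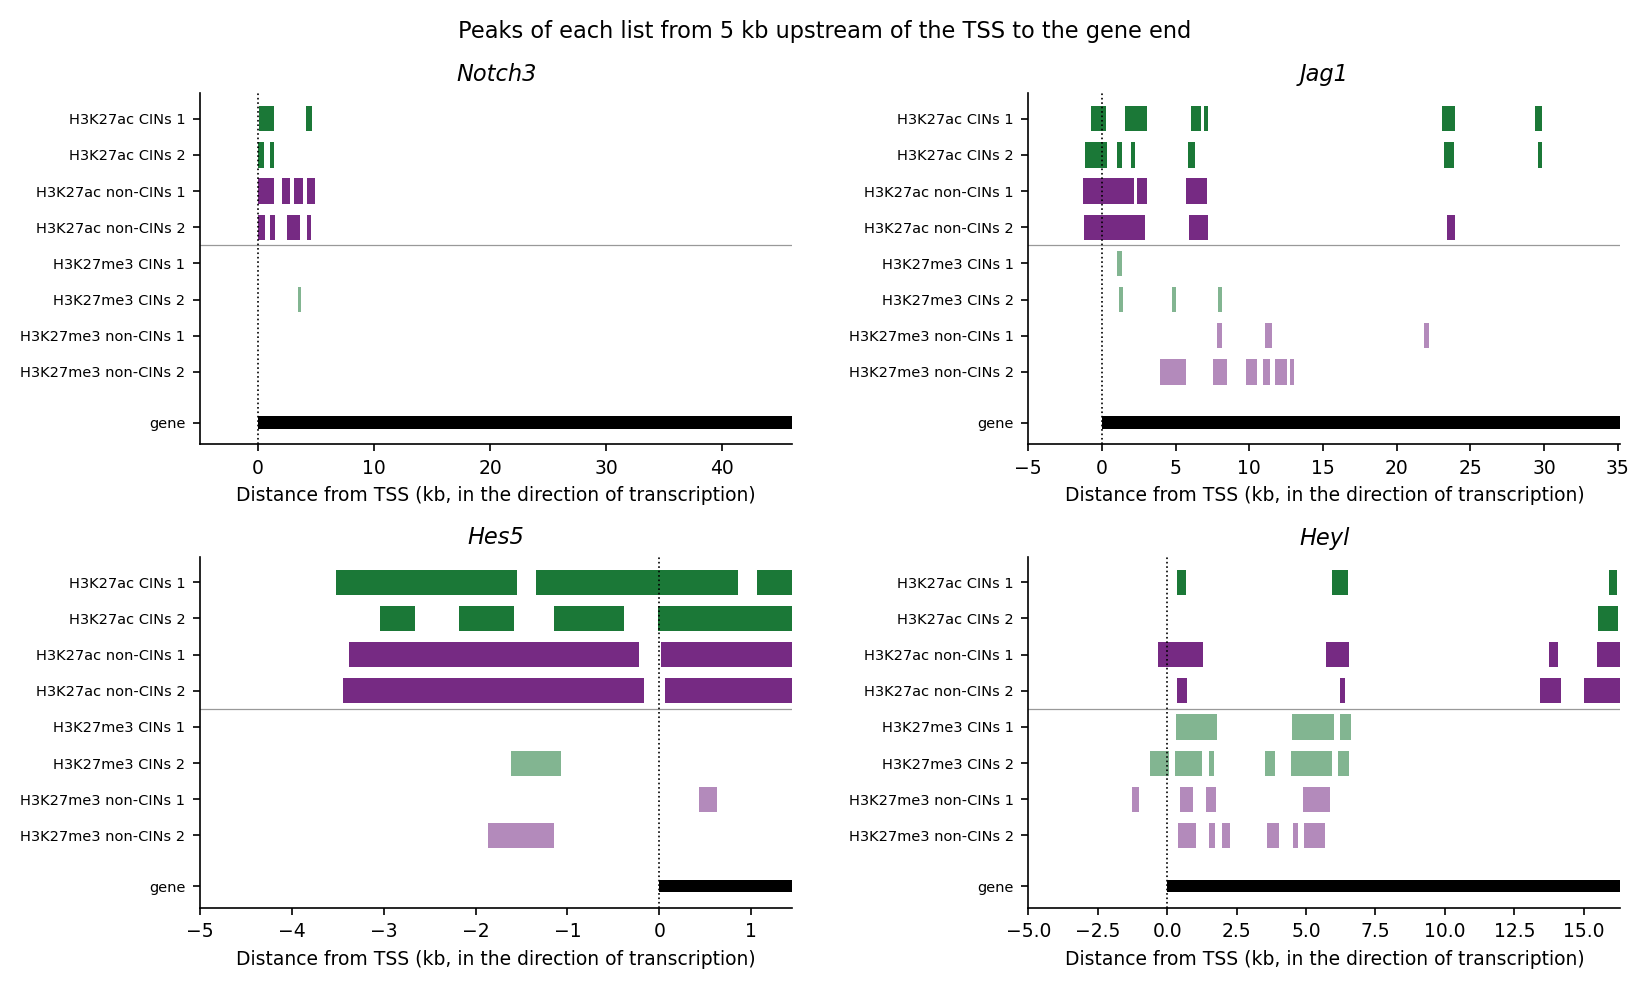
Peaks of each of the 8 lists at Notch3, Jag1, Hes5 and Heyl, by distance from the annotated TSS in kb (x axis, in the direction of transcription; each panel has its own scale), with 1 row per list and the gene as a black bar. CINs are green, non-CINs are purple, and H3K27me3 is paler than H3K27ac. The non-CIN rows of Notch3 and Heyl hold more H3K27ac blocks than the CIN rows, and the non-CIN H3K27ac blocks at Hes5 leave a gap over the TSS.

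The target genes encode basic helix-loop-helix repressors that Notch activation switches on, and all 4 had a higher H3K27ac rank in non-CINs. Heyl differed most of the 10 genes in rank and in the ratio of covered lengths. Its strongest peak ranked at 30.1 and 47.7 in the CIN replicates, compared to 68.8 and 75.4 in the non-CIN replicates, and its covered length was 1233 bp in CIN replicate 1 and 727 bp in replicate 2, with 3669 and 2633 bp for non-CINs, 3.22 times as much. The strongest peak lay more than 15 kb after the TSS, near the gene end, in every list. Heyl is, like Notch3, known from vascular smooth muscle as well as from neural cells.

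Hes1, which keeps progenitors cycling, had a top percentile of 70.5 and 84.7 across the CIN lists and 85.1 and 97.5 across those of non-CINs. The second CIN list lay just below the first non-CIN list, while within each replicate the difference was 14.5 and 12.8 points. Peaks covered 3223 and 2882 bp among CINs versus 4301 and 3686 bp among non-CINs, a ratio of 1.31. Hey1 was acetylated on both sides of its start. By rank, its strongest peak stood at 78.4 and 94.3 in the CIN replicates, compared to 96.6 and 97.8 in the non-CIN replicates, and its covered length of 4495 bp in CIN replicate 1 and 3192 bp in replicate 2, with 4137 and 4494 bp for non-CINs, kept no direction. The strongest CIN peak at Hey1 was 1 broad peak of 4012 bp in replicate 1 and a separate upstream peak of 981 bp in replicate 2, so the ranks of the CIN replicates belong to peaks drawn differently.

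Hes5, a target that is nearly confined to neural progenitors and glia, had the largest share of its window under H3K27ac. Its window of 6.45 kb held 4566 and 3212 bp under peaks among CINs versus 4592 and 4659 bp among non-CINs. The top percentile was 79.5 and 80.3 across the CIN lists and 86.9 and 84.8 across those of non-CINs, 7.37 and 4.46 points higher in non-CINs. In replicate 1 the covered length differed by only 26 bp. That length was split into 3 and 4 peaks among CINs versus 2 and 2 among non-CINs. A peak ran across the annotated TSS in both CIN lists and in neither non-CIN list, where it stopped 219 or 168 bp before the TSS and began again 20 or 65 bp after it.

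**Figure D3:**
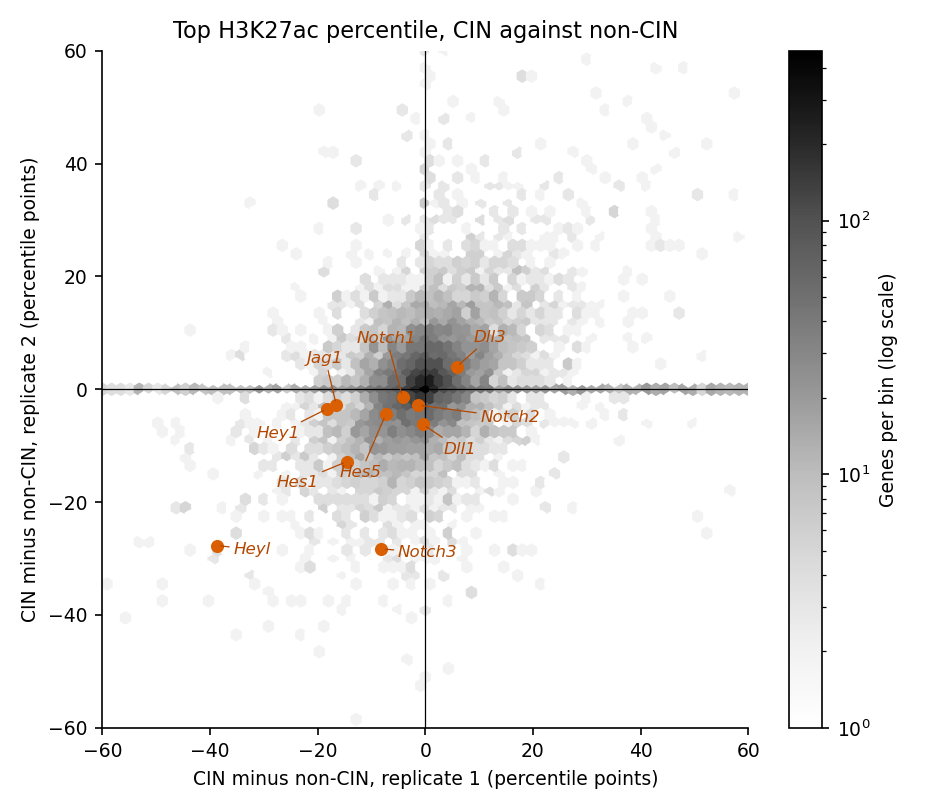
Difference in top H3K27ac percentile, CIN minus non-CIN, in replicate 1 (x axis) and replicate 2 (y axis), in percentile points. Gray hexagons count all 14645 genes with an H3K27ac peak in a list, darker for more genes on a log scale, with values beyond 60 points left off. Orange points are the Notch pathway genes, 9 of which lie to the lower left of the origin and Dll3 to the upper right.

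Promoter sequences show where these peaks lay against the start sites. RefSeq promoter entries (GRCm38.p6) matched 7 of the 10 genes, with 8 entries in all; Hes1, Hey1 and Heyl had none. The 250 bases before the start are given, on the strand of the gene, for 3 genes that stand for the patterns seen: Dll1, whose promoter lay fully under H3K27ac in all 4 lists; Notch3, whose promoter lay under no peak of either mark; and Hes5, where H3K27ac covered 250 and 13 bases among CINs versus 32 and 83 bases among non-CINs. Capitals mark the RBPJ core motif TGGGAA or its reverse complement.
Dll1, chr17:15376933-15377182, minus strand: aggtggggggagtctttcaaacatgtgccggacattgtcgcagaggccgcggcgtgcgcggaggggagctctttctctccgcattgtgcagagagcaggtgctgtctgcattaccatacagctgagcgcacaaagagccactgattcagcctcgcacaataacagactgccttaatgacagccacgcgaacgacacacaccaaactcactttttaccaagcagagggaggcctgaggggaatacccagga
Notch3, chr17:32166891-32167140, minus strand: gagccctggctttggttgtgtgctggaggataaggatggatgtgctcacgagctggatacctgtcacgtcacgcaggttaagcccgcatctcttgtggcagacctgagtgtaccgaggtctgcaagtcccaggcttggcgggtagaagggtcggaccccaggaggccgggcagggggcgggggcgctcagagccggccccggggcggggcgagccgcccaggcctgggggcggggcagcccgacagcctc
Hes5, chr4:154960673-154960922, plus strand: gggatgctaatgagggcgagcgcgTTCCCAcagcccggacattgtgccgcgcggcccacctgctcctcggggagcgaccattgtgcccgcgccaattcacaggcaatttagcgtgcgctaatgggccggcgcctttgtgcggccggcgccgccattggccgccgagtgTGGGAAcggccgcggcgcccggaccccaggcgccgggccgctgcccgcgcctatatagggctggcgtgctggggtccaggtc
Only the Hes5 entry of the 8 held TGGGAA, searched on both strands, with 1 match at 226 to 221 bases before the start on the minus strand and 1 at 82 to 77 bases before it on the plus strand. Of 32851 RefSeq promoters of this length 21.6% held at least 1 match and 2.77% held 2 or more. The N-box CACNAG, a site type described for Hes repressors, was present in the entries of Notch1, Notch2 and Notch3 and in 36.7% of all promoters. The E-box CACGTG was in no member entry and in 6.02% of all promoters. These matches describe letters and not bound sites. All 4 lists had an H3K27ac peak over the annotated TSS of Dll1, Dll3, Jag1 and Hes1, whereas none had one over the TSS of Notch3. At Notch3 the strongest H3K27ac peak of each list began 19 to 66 bp after the annotated TSS.

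H3K27me3 was called at 9 of the 10 genes and in no list at Notch1. It was called in any list at 8930 of 21728 protein-coding genes. Its length was greater in CINs in both replicates at 3 of the 9 genes, the targets Hes1, Hey1 and Heyl, where 16.7% of the 8930 genes with an H3K27me3 peak did so. It was greater in non-CINs at 4 genes, the ligands Dll1, Dll3 and Jag1 and the target Hes5, where 25.4% of all genes did so. Without overlap between populations these were 3 and 3 genes, Hes5 being lost, beside 7.33% and 11.1% of all genes. By top percentile 2 genes ranked higher in CINs, Hes1 and Heyl, and 2 in non-CINs, Dll1 and Jag1, beside 16.7% and 24.2% of all genes. Without overlap only Heyl and Dll1 remained, beside 9.62% and 13.9%. The first CIN list called no H3K27me3 at 6 of the 10 genes (the receptors, Dll1, Dll3 and Hes5), so each non-CIN excess at Dll1, Dll3 and Hes5 in replicate 1 is set against a list with no peak. Without replicate 1 the CIN counts were 5 for length and 7 for percentile, and without replicate 2 the non-CIN percentile count was 6. With only peaks of a -log10 q of at least 4, the non-CIN counts were 1 for length and 0 for percentile. The median difference, CIN minus non-CIN, was 116 bp and 5.38 points over the 9 genes and -95.0 bp and -0.628 points over all genes tested.

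**Figure D4:**
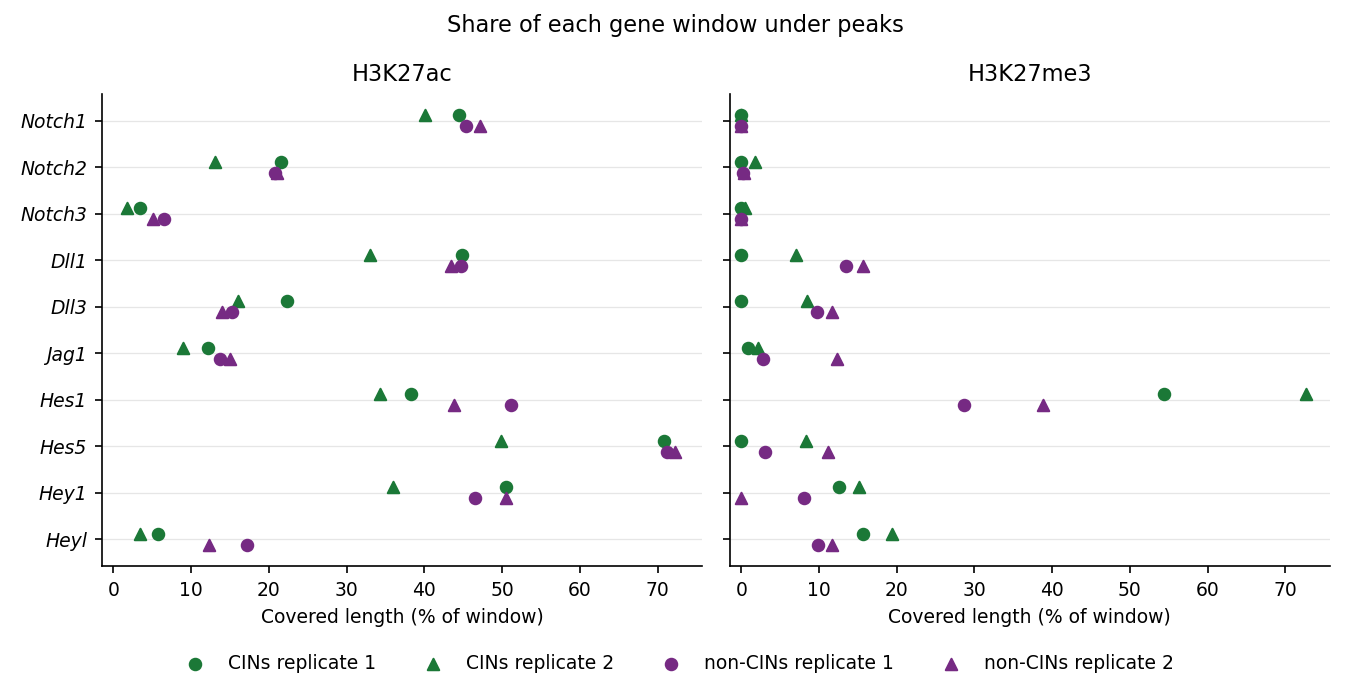
Share of each gene window under peaks (x axis, percent of the window), for H3K27ac on the left and H3K27me3 on the right, with CINs in green, non-CINs in purple, circles for replicate 1 and triangles for replicate 2. Hes1 stands apart for H3K27me3, with 54.4% and 72.7% of its window covered in CINs and 28.6% and 38.8% in non-CINs.

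Hes1 had the highest H3K27me3 rank and the largest share of its window under H3K27me3 of the 10 genes in every list, though not the greatest length in non-CIN replicate 2, where Jag1 exceeded it. Peaks covered 4573 and 6120 bp in the CIN replicates, compared to 2409 and 3266 bp in the non-CIN replicates, 1.88 times as much in CINs. Its strongest peak ranked near the top in every list, at 93.9 in CIN replicate 1 and 96.1 in replicate 2, with 92.8 and 96.0 for non-CINs, so the ranks differed by only 1.10 and 0.0834 points. The upstream block, more than 1 kb before the TSS, was present in all 4 lists. The populations differed over the gene body, where CINs had blocks of 1619 and 2187 bp starting 702 and 278 bp after the TSS, while the non-CIN lists held 1 peak of 321 bp and none.

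Heyl showed the same direction with both measures. H3K27me3 covered 3340 and 4131 bp across the CIN lists and 2094 and 2485 bp across those of non-CINs, 1.63 times as much in CINs. Its top percentile was 85.2 and 92.6 among CINs versus 72.1 and 83.1 among non-CINs, and the populations did not overlap. One CIN list had an H3K27me3 peak across the Heyl TSS, the only such peak at any member in any list. Within 2 kb of the TSS alone, the rank difference at Heyl turned to -6.38 points. Heyl and Hes1 were thus the members with less H3K27ac and more H3K27me3 length in CINs in both replicates. At Hey1, H3K27me3 covered 1118 and 1351 bp in the CIN replicates, compared to 717 and 0 bp in the non-CIN replicates, and its rank in replicate 1, 50.2 against 51.2, did not follow.

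In H3K27me3 length inside the window, the Delta ligands had the opposite pattern. At Dll1, H3K27me3 covered 0 bp in CIN replicate 1 and 1027 bp in replicate 2, with 1966 and 2282 bp for non-CINs, and its top percentile was 0 and 18.1 across the CIN lists and 42.2 and 63.4 across those of non-CINs. Over the whole window, Dll1 was the only member with a higher H3K27me3 rank in non-CINs without overlap. Over the gene body alone, Dll1 was no longer counted for H3K27me3 length or rank. Every H3K27me3 peak of non-CIN replicate 2 at Dll1 lay upstream of the TSS. The Dll1 window shares 4476 bp with the long noncoding RNA gene A930024N18Rik, whose TSS lies inside it. At Dll3, peaks covered 0 and 1150 bp among CINs versus 1338 and 1604 bp among non-CINs. The Dll3 ranks did not follow, being 0 and 93.4 in the CIN replicates, compared to 64.5 and 81.7 in the non-CIN replicates. The high second CIN rank came from a peak of 4549 bp that began 8134 bp after the TSS and ran on beyond the gene end. Inside the window, Dll3 was thus the only member with more H3K27ac and less H3K27me3 length in CINs in both replicates. That 4549 bp peak was counted only inside the window, although its whole length exceeds the 1604 bp of non-CIN replicate 2. In replicate 1 the CIN list had no H3K27me3 peak to compare. At Jag1, H3K27me3 covered 367 bp in CIN replicate 1 and 882 bp in replicate 2, with 1146 and 4958 bp for non-CINs, where the second non-CIN list alone carried most of the 4.89-fold difference of the means. Within 2 kb of the TSS alone, the Jag1 difference reversed to 331.5 bp more in CINs. The top percentile was 11.9 and 58.6 across the CIN lists and 44.3 and 59.9 across those of non-CINs.

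**Figure D5:**
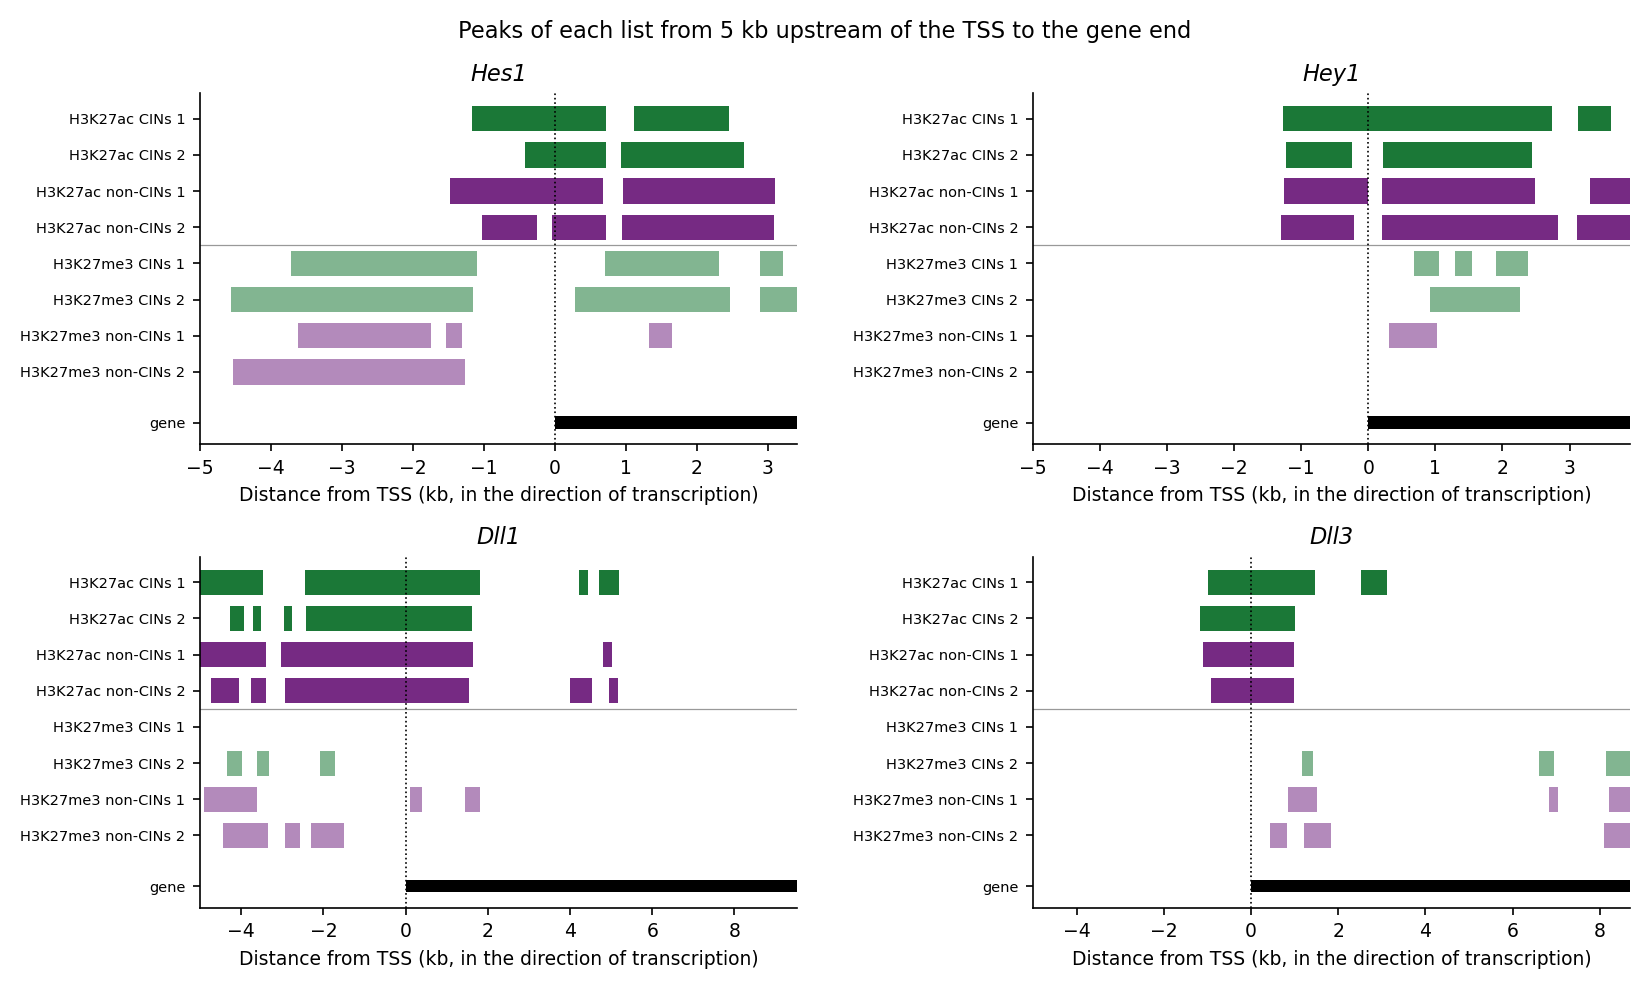
Peaks of each of the 8 lists at Hes1, Hey1, Dll1 and Dll3, by distance from the annotated TSS in kb (x axis, in the direction of transcription; each panel has its own scale), with 1 row per list and the gene as a black bar. CINs are green, non-CINs are purple, and H3K27me3 is paler than H3K27ac. The Hes1 gene body holds long H3K27me3 blocks in both CIN rows, and the Dll1 and Dll3 rows of the first CIN H3K27me3 list are empty.

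The remaining members had little H3K27me3. Hes5 carried 0 and 539 bp among CINs versus 200 and 721 bp among non-CINs, with no more than 1 peak in a list, and the direction reversed when only the strongest 30000 peaks of each list were kept. Notch2 carried 0 and 2458 bp in the CIN replicates, compared to 366 and 476 bp in the non-CIN replicates, and Notch3 had a single peak of 233 bp in the second CIN list. The highest percentile among these peaks was 39.7, at Notch2. An absent peak means that none was called at the authors' threshold and not that the mark was absent.

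Peaks of both marks overlapped in both replicates at Hes1 and Hey1 in CINs and at Dll1, Dll3, Hes5 and Heyl in non-CINs. That is 2 and 4 of the 10 genes, against 3.52% and 2.23% of 16789 genes with a peak of either mark. These sets are unlike. Only 8930 genes had an H3K27me3 peak, so many of the 16789 could hold no overlap, while 9 of the 10 members had peaks of both marks. Without replicate 1 the CIN count was 6, and with only peaks of a -log10 q of at least 4 the counts were 1 and 0. At Hes1 the overlap was 1300 bp in CIN replicate 1 and 1986 bp in replicate 2, with 485 and 0 bp for non-CINs. At Hey1 it was 1118 and 1351 bp across the CIN lists and 717 and 0 bp across those of non-CINs, all of the H3K27me3 called there. At Dll1 it was 0 and 769 bp among CINs versus 1790 and 1980 bp among non-CINs. Each population mixes cells, so overlapping peaks do not show that both marks lay in one cell.

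Some regions were called in both replicates of one population with no overlapping peak in the other's list of the same replicate number. How many would fall inside these windows from their length alone was not computed. Such regions numbered 4182 in CINs and 2775 in non-CINs for H3K27ac, of which 1 and 2 lay at Notch pathway genes, and 710 and 1286 for H3K27me3, of which 1 and 1 did, both at Jag1. The CIN-only H3K27ac region was chr2:137086773-137087073 (301 bp), in a Jag1 intron 29.7 kb after the TSS, with percentiles of 43.7 and 18.6. The non-CIN-only H3K27ac regions were chr3:98093180-98093440 (261 bp), in a Notch2 intron 79.8 kb after the TSS with percentiles of 80.7 and 36.1, and chr4:123247293-123247626 (334 bp), which meets a UTR of Heyl 13.9 kb after the TSS with percentiles of 23.7 and 35.1. The H3K27me3 regions of Jag1 were chr2:137115254-137115478 (225 bp, meeting an exon 1.28 kb after the TSS) in CINs and chr2:137105087-137105608 (522 bp, in an intron 11.3 kb after the TSS) in non-CINs. The sequences of the intronic H3K27ac regions, 1 at a ligand and 1 at a receptor, are given on the strand of the gene because each was counted for a single population. The Notch2 region is the stretch that both non-CIN peaks share, and a CIN peak of 200 bp in replicate 1, starting at position 98093614, lies just beyond it, within the longer peak of non-CIN replicate 2.
Jag1 intron, CIN-only, central 200 bases, chr2:137086823-137087022, minus strand: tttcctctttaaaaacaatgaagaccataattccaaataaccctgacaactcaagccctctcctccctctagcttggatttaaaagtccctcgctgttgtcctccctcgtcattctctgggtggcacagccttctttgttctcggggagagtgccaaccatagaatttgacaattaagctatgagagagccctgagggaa
Notch2 intron, non-CIN-only, whole region, chr3:98093180-98093440, plus strand: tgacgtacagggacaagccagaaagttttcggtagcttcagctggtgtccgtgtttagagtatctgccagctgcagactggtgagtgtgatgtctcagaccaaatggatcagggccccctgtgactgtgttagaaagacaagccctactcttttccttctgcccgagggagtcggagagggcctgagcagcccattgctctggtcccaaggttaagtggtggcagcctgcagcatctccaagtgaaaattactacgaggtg
Neither holds TGGGAA or CACGTG on either strand, and the Notch2 region holds 2 matches to CACNAG.

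Other pathway genes were counted from a list of 32 that adds further ligands, glycosyltransferases, proteases, RBPJ and its coactivators, inhibitors and related bHLH genes. H3K27ac was called in any list at 28 of them, beside 14645 of 21728 protein-coding genes. Covered length was greater in CINs at 6 and in non-CINs at 14, beside 29.8% and 29.2% of all genes tested, and 5 and 8 of these did not overlap, beside 18.0% and 18.0%. By top percentile 8 were higher in CINs and 11 in non-CINs, beside 33.2% and 24.6%. The 5 genes with more length in CINs without overlap are thus a share near that of all genes. Jag2, Dlk1, Dlk2 and Neurog2 had no H3K27ac peak in any list.

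Among the genes with more H3K27ac length in CINs without overlap were the γ-secretase subunit Ncstn, the Fringe glycosyltransferase Mfng, the coactivator Maml3 and the Numb relative Numbl. At Ncstn the rank lay the other way, at 98.0 and 98.2 among CINs versus 98.3 and 98.6 among non-CINs. Maml3 differed most among these named genes, with 35807 and 21204 bp in the CIN replicates, compared to 16014 and 9227 bp in the non-CIN replicates. Mfng had 4568 bp in CIN replicate 1 and 3092 bp in replicate 2, with 2659 and 2353 bp for non-CINs. With more length in non-CINs were the Fringe gene Lfng, the fucosyltransferase Pofut1, the γ-secretase subunit Aph1a, the coactivators Maml1 and Maml2, the feedback inhibitor Nrarp and the bHLH genes Hes7 and Hey2. Hey2 had 1082 and 1128 bp across the CIN lists and 2737 and 2762 bp across those of non-CINs, and Maml2 had 60643 and 43270 bp among CINs versus 80415 and 71444 bp among non-CINs. H3K27me3 was called in any list at 19 of the 32 genes, beside 8930 of 21728 protein-coding genes. Its length was greater in CINs at 2 and in non-CINs at 6, beside 16.7% and 25.4% of all genes tested.

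The astrocyte and radial glia markers, whose summed H3K27ac length was higher in non-CINs as given above, stood on the same side as most of the Notch receptors and targets in that measure, and the part of such cells in the Notch values was not tested. By top percentile 2 of these 6 markers were higher in non-CINs in both replicates, beside 24.6% of all genes tested, and none was higher in CINs. Slc1a3, a glial glutamate transporter, stood at 86.4 and 90.8 in the CIN replicates, compared to 93.4 and 98.7 in the non-CIN replicates. The transcription factor gene Sox9 stood at 77.5 in CIN replicate 1 and 89.5 in replicate 2, with 95.6 and 97.3 for non-CINs. The other markers, Aldh1l1, Slc1a2, Fabp7 and Aqp4, kept no direction in this measure. Ranks at some markers of other cell types lay on the same side. Of the 4 progenitor markers, 2 ranked higher in non-CINs without overlap and none in CINs. Pax6, a progenitor transcription factor gene, stood at 88.6 and 89.6 among CINs versus 94.2 and 96.4 among non-CINs, and Emx2 at 74.7 and 73.5 versus 89.3 and 96.0. Of the 4 oligodendrocyte lineage markers, 2 ranked higher in non-CINs without overlap, Olig1 at 81.5 and 86.5 among CINs versus 94.0 and 96.9 among non-CINs, and Olig2 at 69.1 and 76.0 versus 89.2 and 92.0, while Sox10 was higher in CINs in both replicates. Of all genes tested, 15.6% ranked higher in non-CINs and 20.8% in CINs without overlap. By that rule 2 of 4 pericyte and smooth muscle markers ranked higher in non-CINs and none in CINs. Microglia markers gave 1 of 4 on each side, with Cx3cr1 higher in CINs. Of 5 endothelial markers none ranked higher in non-CINs and 2 did in CINs, Pecam1 and Tek. Of 6 projection neuron markers 1 ranked higher in CINs, Neurod6, and none in non-CINs. The part of these cells in the Notch ranks was not tested.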

How the data were processed

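H3K27ac and H3K27me3 ChIP-seq peak lists were analysed for 2 replicates of CINs and of non-CINs. Reads had been mapped by the authors with BWA 0.7.15 (build mm10), and broad peaks were called for each replicate separately against matched input with MACS2, given as version 2.2.7 in the submitters' processing notes and as an earlier release in the study's methods. The deposited lists hold for each peak a score, a fold enrichment over input (a ratio), and -log10 p and -log10 q values. The 4 input libraries enter only through that fold. Read depth was not used here, and the lists bear no counting interval. The lowest -log10 q per list was 2.21 to 2.60, and the shortest peak was 200 bp.

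Deposited peaks were not merged. Windows came from the GENCODE vM21 basic annotation (protein-coding genes of the autosomes and X, first entry per symbol), which shares the build of the lists. Percentiles of fold enrichment were taken within each list, ties counted as the mid-rank. The study compared the populations within each replicate and then intersected the replicates, so lists were paired by replicate number. Over all genes, deviations of same-numbered lists from their population means correlated at 0.56 and 0.296 for H3K27ac length and percentile and at 0.919 and 0.468 for H3K27me3. With 2 pairs, neither this nor the labels ties same-numbered samples to shared animals, and both the paired and the non-overlapping counts are given. Regions of one population used peaks merged within 500 bp. Lengths and peak counts were checked against bedtools 2.31.1, and planted differences in simulated lists were recovered. Python 3.11.15, NumPy 2.4.6, pandas 2.3.3 and matplotlib 3.10.9 were used.

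All 10 members are named, with each region of one population inside their windows. Of 32 further pathway genes, those whose H3K27ac length did not overlap between populations are named, except 1 that is not reported here. Other genes named, cell type markers with their ranks among them, were chosen after their values were seen. The members and lists were chosen with earlier results of these data known.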

Additional observations from a re-analysis of the deposited data

How the results depend on the processing

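Counts of genes out of the 10 were recomputed under 9 kinds of change, and the cause of each shift was not tested except where fewer peaks or lists enter by construction. The paired counts use the replicate block. With no replicate block the H3K27me3 percentile counts became 1 in CINs and 1 in non-CINs, from 2 and 2, and no other count moved by more than 1.5 times. With a stricter threshold (-log10 q of at least 4), non-CIN H3K27me3 counts became 1 for length and 0 for percentile, from 4 and 2, and genes with both marks became 1 in CINs and 0 in non-CINs, from 2 and 4. With the strongest 30000 peaks of each list, 1 gene held both marks in non-CINs, and the Hes5 H3K27me3 length difference (CIN minus non-CIN) reversed to 269.5 bp. Merging peaks within 500 bp left each count as it was for H3K27ac, though Dll1 replaced Hes5 among the 6 genes with more length in non-CINs. Over the gene body alone, that count became 4 (Notch1 and Hes5 lost), and non-CIN counts became 2 for H3K27me3 length, 1 for its percentile and 2 for both marks. Within 2 kb of the TSS, 2 genes were higher in CINs for H3K27ac length (Dll1 and Dll3) and 2 for its percentile, the non-CIN percentile count went from 9 to 6 (Notch1, Notch2 and Jag1 lost) with Notch1 reversing to 1.65 points, and for H3K27me3 Jag1 reversed to 331.5 bp and 35.2 points and Heyl to -6.38 points. When 500 bp or 5 points were required in each replicate, CIN counts for H3K27ac became 0 for length and 0 for percentile, the non-CIN H3K27ac percentile count became 3, and H3K27me3 counts became 2 for non-CIN length, 1 for CIN percentile and 1 for non-CIN percentile. Leaving out a replicate gave 1 to 4 genes for CIN H3K27ac length, 6 to 9 for non-CIN H3K27ac length, 3 to 5 for CIN H3K27me3 length, 2 to 7 and 2 to 6 for CIN and non-CIN H3K27me3 percentile, and 3 to 6 for both marks in CINs. Of 320 values of single genes under the changes that can move them, 17 changed sign, 5 of them at genes counted in one direction, which are given above as reversed, and 25 others moved by more than the replicate SD. Gene bounds from RefSeq, tried after seeing the data, moved no count by more than 1.5 times, with 5 genes rather than 6 for non-CIN H3K27ac length (Notch1 lost). With 2 lists a group, no outlier check was possible.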
